A study of Mus musculus with 10 samples.

Results

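Leukocyte adhesion molecules are the surface proteins by which an endothelial cell catches, holds and passes white blood cells. The genes described here are 10, chosen by symbol: Icam1, Icam2, Vcam1, Madcam1, Sele, Selp, Cd99, Cd99l2, Mcam and Alcam. Rows carrying these symbols were taken from a deposited table of 23510 gene rows. A row was used for 9 of the 10, and Cd99 was not analysed here. The cells were lymphatic endothelial cells (LEC), which line lymphatic vessels, isolated by FACS out of MT-ret melanomas that grew from fragments implanted in the flank of C57BL/6N mice. Of 10 such mice, 5 received an intraperitoneal antibody against angiopoietin-2 (Ang2) and 5 received IgG, and tumours were taken 12 h later. Both groups thus share strain, tumour and time and differ in the injected antibody; the age of the mice is not given in the sources used here, and each mouse gave 1 library of bulk RNA. The comparison asks which LEC transcripts differ shortly after Ang2, a ligand of the endothelial receptor TIE2, is blocked.

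Leukocytes leaving the blood are first slowed by selectins, then held by members of the immunoglobulin superfamily such as ICAM1 and VCAM1 that bind leukocyte integrins, and finally pass between endothelial cells with the help of junctional proteins of the CD99 group. On lymphatic vessels the traffic runs the other way, from tissue into the vessel, and ICAM1 and VCAM1 on inflamed lymphatic endothelium are known to serve dendritic cells that enter it. In mouse blood vessels, Ang2 is known to sensitise endothelium to tumour necrosis factor, one of the inducers of Icam1 and Vcam1.

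Among these genes, Icam2 fell with anti-Ang2 and none rose. Icam2 stood at 98.1 ± 15.1 CPM (counts scaled to library size) in anti-Ang2 LEC and at 175 ± 18.5 CPM in IgG LEC (SD, n = 5 each), a fold of 0.560. The other 8 genes did not pass the test, among them the inflammation-inducible Icam1, Vcam1, Sele and Selp. By edgeR's quasi-likelihood test with Benjamini-Hochberg adjustment over 16240 genes, 0 of the 9 genes were called higher and 1 lower at an adjusted p under 0.05, against 4.13% of all tested genes called in either direction (2.8% lower and 1.34% higher). At an unadjusted p under 0.05 the counts were 0 higher and 2 lower (Icam2 and Cd99l2), where 18.2% of all tested genes lay under it, and DESeq2, which called 11.4% of the genes it tested, called 0 higher and 1 lower. The median log2 fold change over the 9 genes was -0.19, with 4 positive and 5 negative values, against 0.014 over all tested genes. With 1 gene called, the count says nothing of the 9 as a set.

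Libraries held 38090933 to 51786044 counts in the anti-Ang2 group and 40313230 to 83850341 in the IgG group, and the spread between mice exceeded counting error for the genes described here. The label LEC was compared with its markers, and all 10 lymphatic markers were detected in every library, among them Prox1, the transcription factor of lymphatic identity, at 980 to 1390 CPM. Transcripts of other cells were present too, and melanoma markers summed to 1647 to 8037 CPM in anti-Ang2 libraries and 402 to 2621 CPM in IgG libraries. Angpt2, the gene for Ang2, stood at 3222 ± 533 CPM in anti-Ang2 LEC and 769 ± 279 CPM in IgG LEC, and Tek, the gene for TIE2, at 202 ± 38.5 CPM in anti-Ang2 LEC and 503 ± 88.7 CPM in IgG LEC (SD, n = 5 each). The antibody acts on the protein, so these transcripts are no check of the labels. In bulk RNA, fewer cells of a type and less RNA per cell cannot be told apart.

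**Figure D1:**
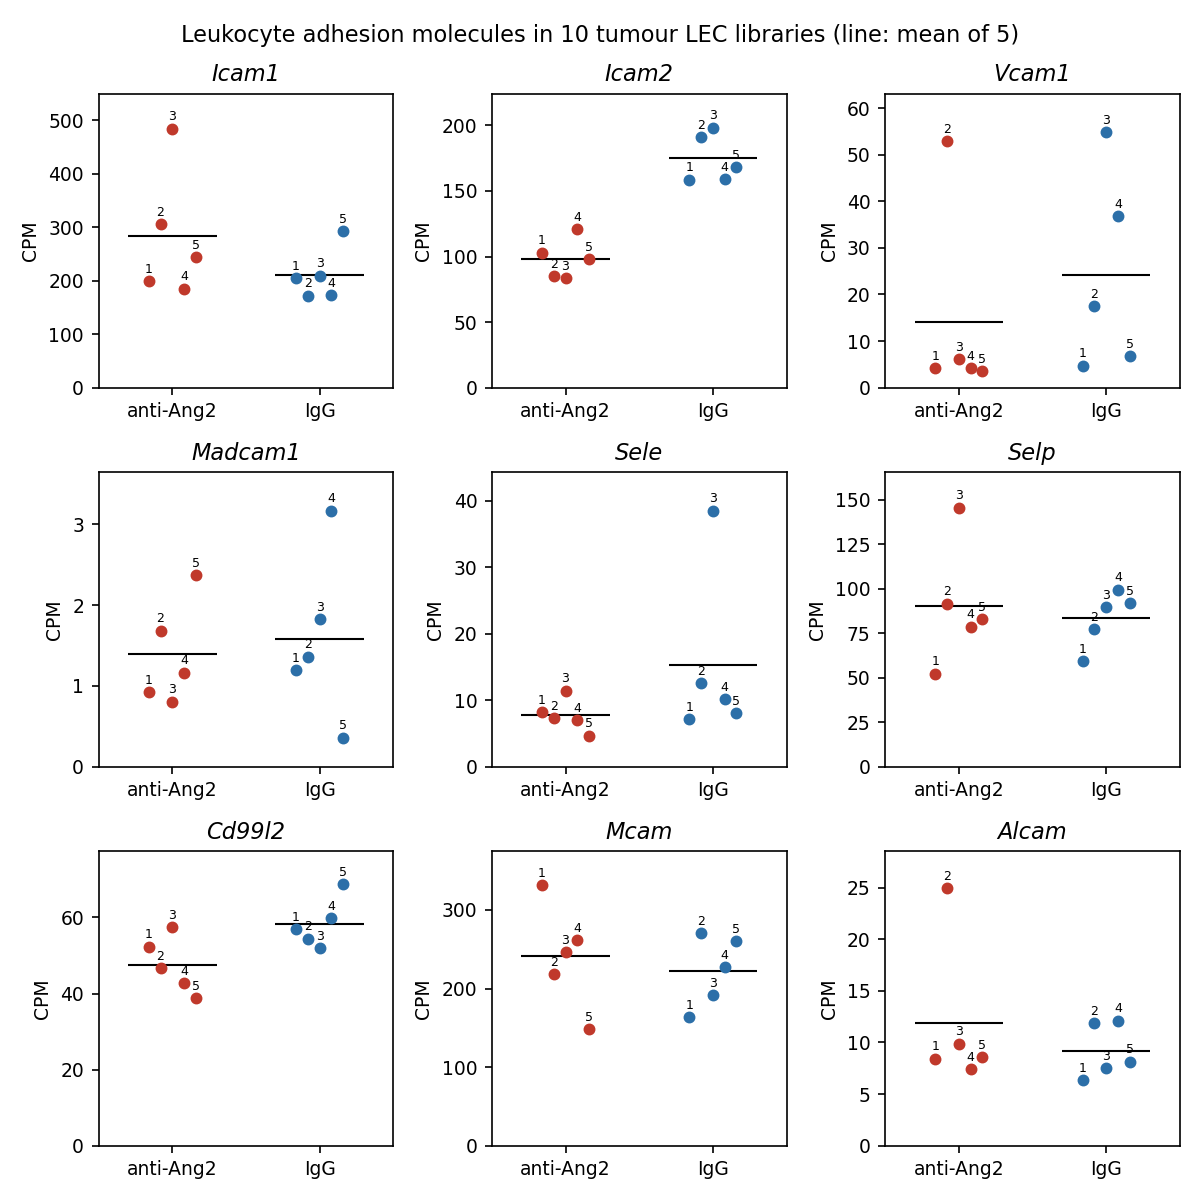
CPM (y axis, linear, from 0, own scale per gene) of the 9 genes in the 5 anti-Ang2 libraries (red) and the 5 IgG libraries (blue); each point is 1 library with its replicate number, and lines are group means. The groups do not overlap for Icam2, where the anti-Ang2 libraries lie at 83.7 to 121 CPM and the IgG libraries at 159 to 198 CPM. Single libraries stand far above the rest for Sele and Alcam, and for Vcam1 4 libraries stand above the other 6.

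Levels can be set side by side between genes as FPKM, the deposited value scaled to gene length and library size. In anti-Ang2 LEC the highest means were those of Mcam (75.1 ± 21.2 FPKM), Icam1 (67.5 ± 28.4 FPKM) and Icam2 (53.9 ± 9.78 FPKM), whose ranges overlapped. In IgG LEC Icam2 led with 94.4 ± 9.30 FPKM, above Mcam (68.1 ± 12.7 FPKM) with no overlap of their ranges, and Icam1 followed with 49.4 ± 10.4 FPKM, overlapping Mcam. Selp stood at 21.3 ± 7.97 FPKM in anti-Ang2 LEC and 19.4 ± 3.55 FPKM in IgG LEC, in both groups below the lowest Icam1 library. Cd99l2 came next, at 10.1 ± 1.52 FPKM in anti-Ang2 LEC and 12.2 ± 1.21 FPKM in IgG LEC, with no overlap with Selp in either group. The other 4 genes were scarce: Sele averaged 2.76 ± 0.87 FPKM in anti-Ang2 LEC and 5.39 ± 4.61 FPKM in IgG LEC, and Vcam1, Alcam and Madcam1 each averaged between 1.02 and 2.80 FPKM in either group. Neighbours in the order below Cd99l2 overlapped in their ranges, except Cd99l2 and Sele in anti-Ang2 LEC. The gene of highest FPKM was Icam1 in 3 anti-Ang2 libraries and Mcam in the other 2, against Icam2 in 5 of 5 IgG libraries.

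**Figure D2:**
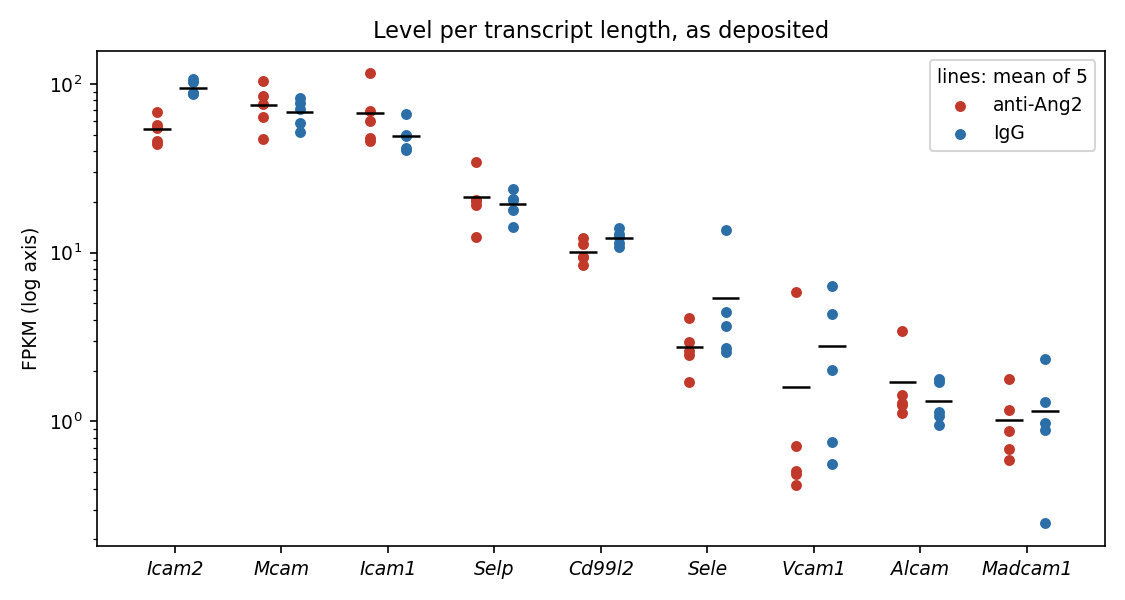
FPKM (y axis, log scale) of the 9 genes, ordered by their mean in IgG LEC, with 1 point per library, anti-Ang2 in red to the left of IgG in blue, and lines at group means. Icam2, Mcam and Icam1 lie above all other genes in both groups, and Vcam1 spreads over more than 10 fold within each group.

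ICAM2 is a short immunoglobulin superfamily member that resting endothelium carries on its surface and at its junctions, and that binds the leukocyte integrin LFA-1. The gene lies on the minus strand of chromosome 11 (mm10, chr11:106377656-106388075) and shares no exon base with another annotated gene. Icam2 measured 103, 85.2, 83.7, 121 and 97.7 CPM in anti-Ang2 mice 1 to 5, against 159, 191, 198, 159 and 168 CPM in IgG mice 1 to 5. The highest anti-Ang2 library lay below the lowest IgG library, a separation seen in 6.1% of all tested genes in either direction (2.34% with anti-Ang2 higher and 3.76% with anti-Ang2 lower). For Icam2 the log2 fold change was -0.84 ± 0.11 (SE; 95% interval -1.08 to -0.59), with an adjusted p of 0.00218 by edgeR, and it ranked 88 by p among 16240 genes. Leaving out each library in turn gave log2 fold changes of -0.92 to -0.78, with adjusted p of 0.00314 to 0.00866. In the authors' deposited table its log2 fold change is -0.79, with an adjusted p of 3.4e-09. DESeq2, which the submitters name, gave -0.83 here with an adjusted p of 2.7e-09. Both rest on the same counts as the edgeR result and are not independent of it.

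The Icam2 difference stood beside differences in the markers of other cells. Summed melanoma markers averaged 5014 ± 2772 CPM in anti-Ang2 libraries and 1400 ± 1055 CPM in IgG libraries (SD, n = 5 each; two-sided exact permutation p = 0.0397, adjusted over 10 marker lists 0.159). With that sum as a covariate in edgeR, the log2 fold change of Icam2 was -0.72 ± 0.15 and its adjusted p 0.0681, in a fit that called 0.554% of all genes. With the sum of pericyte and smooth muscle markers, an alternative added after the data were seen, it was -0.79 ± 0.16 with an adjusted p of 0.0669 (0.573% called). Without anti-Ang2 libraries 1, 2 and 3, those of the highest melanoma sums, it was -0.69 ± 0.14 with an adjusted p of 0.0567 (1.32% called). With the macrophage marker sum the call held, at -0.80 ± 0.15 with an adjusted p of 0.0458 (0.751% called). The direction held in each of these 4 fits, and the call at 0.05 was lost in the first 3. The pericyte sum was led by Cspg4, which melanoma cells are also known to express, so the pericyte and melanoma sums can count the same cells. Anti-Ang2 libraries 4 and 5 had melanoma sums within the range of the IgG group, and their Icam2 levels of 121 and 97.7 CPM lay below those of every IgG library. Anti-Ang2 4 had a pericyte sum of 317 CPM, above the IgG maximum of 241 CPM, and anti-Ang2 5 one of 155 CPM. Their macrophage sums were 175 and 41.4 CPM, against 194 CPM in IgG 1 and 23.0 to 28.9 CPM in the other IgG libraries. The part of these cells in the Icam2 levels was not tested.

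ICAM1 binds the integrins LFA-1 and Mac-1 and is induced by inflammatory cytokines. Icam1 (mm10, chr9:21015985-21028817, plus strand) measured 199, 305, 485, 185 and 244 CPM in anti-Ang2 mice 1 to 5, against 205, 172, 209, 172 and 292 CPM in IgG mice 1 to 5. The groups overlapped, and anti-Ang2 library 3 stood above all others. Icam1 had a log2 fold change of 0.43 ± 0.25 (SE; 95% interval -0.13 to 0.99; adjusted p = 0.422 by edgeR), and 0.16 ± 0.19 without anti-Ang2 library 3. The interval reaches from slightly lower to about 2 times the level, so Icam1 was not shown to differ, nor to be equal. An annotated antisense gene, Gm47079, shares 511 of its 4360 exon bases (11.7%), and the SMART-Seq kit does not mark strand, so reads there cannot be told apart.

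Promoters are shown for Icam1, Sele and Madcam1 because these 3 hold the same short motif of the inflammatory factor NF-kB, and for Selp because it lies beside Sele without that motif. Each is the 250 bases before the gene's start in RefSeq (build GRCm38.p6), read 5′ to 3′ on the gene's strand. A promoter entry was matched for 7 of the 10 genes, and Icam2 and Vcam1 were not among them. Capitals mark matches to GGANNTTCC, an NF-kB-like core, in Icam1, Sele and Madcam1, and the TATAAA box in Sele. In Madcam1 the match is on the opposite strand, so the printed letters are its reverse complement. The windows are chr9:21015690-21015939 (Icam1), chr1:164047984-164048233 (Sele), chr10:79664309-79664558 (Madcam1) and chr1:164115014-164115263 (Selp), all on the plus strand.
Icam1: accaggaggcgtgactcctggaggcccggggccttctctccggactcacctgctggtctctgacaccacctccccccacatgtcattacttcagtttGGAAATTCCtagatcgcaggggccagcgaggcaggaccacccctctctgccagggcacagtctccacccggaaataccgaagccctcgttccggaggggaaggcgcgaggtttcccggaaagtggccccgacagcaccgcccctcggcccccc
Sele: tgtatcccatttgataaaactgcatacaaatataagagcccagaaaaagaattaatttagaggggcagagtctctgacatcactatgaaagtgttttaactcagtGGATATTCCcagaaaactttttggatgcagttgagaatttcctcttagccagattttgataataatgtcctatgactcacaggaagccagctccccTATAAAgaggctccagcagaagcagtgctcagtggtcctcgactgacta
Madcam1: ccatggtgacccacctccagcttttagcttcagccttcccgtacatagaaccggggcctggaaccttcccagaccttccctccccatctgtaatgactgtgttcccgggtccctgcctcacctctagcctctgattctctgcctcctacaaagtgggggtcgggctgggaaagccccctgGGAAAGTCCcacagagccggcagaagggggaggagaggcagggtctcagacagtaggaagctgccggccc
Selp: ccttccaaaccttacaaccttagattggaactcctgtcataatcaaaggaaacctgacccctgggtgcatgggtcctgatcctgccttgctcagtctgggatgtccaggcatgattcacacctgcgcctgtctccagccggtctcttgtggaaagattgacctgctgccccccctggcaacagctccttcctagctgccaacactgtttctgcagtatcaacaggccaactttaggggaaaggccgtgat
Searched on both strands, GGANNTTCC occurred in 3.59% of 32851 RefSeq promoters of this length and TATAAA in 12.4%. The AP-1 motif TGANTCA was found in Sele and Selp (6.75% of all promoters), and the ETS core GGAA in all 7 matched promoters (93.4% of all). Every match to GGANNTTCC also holds the ETS core, since TTCC is GGAA on the other strand. Base composition also differed, with 40.4% G and C in Sele against 65.2% in Icam1 and a median of 52.4% over all promoters. The motifs were chosen after these promoters had been read, and a match describes letters, not binding. Of the 3 genes with the NF-kB-like core, none was called, and their log2 fold changes were 0.43 (Icam1), -0.98 (Sele) and -0.19 (Madcam1).

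VCAM1 binds the integrin VLA-4 of lymphocytes and monocytes. Vcam1 (mm10, chr3:116109949-116129688, minus strand) measured 4.13, 52.9, 6.07, 4.17 and 3.47 CPM in anti-Ang2 mice 1 to 5, against 4.70, 17.5, 54.8, 36.8 and 6.73 CPM in IgG mice 1 to 5. Its values fell on either side of a gap: 6 libraries of both groups held 3.47 to 6.73 CPM and the other 4 held 17.5 to 54.8 CPM. The high libraries were anti-Ang2 2 and IgG 2, 3 and 4. Vcam1 had a log2 fold change of -0.77 ± 0.89 (SE; 95% interval -2.72 to 1.19; adjusted p = 0.738 by edgeR). Single libraries moved this estimate: without anti-Ang2 library 2 the log2 fold change was -2.43 ± 0.68, with an adjusted p of 0.0924, and without IgG library 3 it was -0.22 instead. Macrophage markers summed to 41.4 to 262 CPM in anti-Ang2 libraries and 23.0 to 194 CPM in IgG libraries, and with that sum as a covariate the sign turned (0.84 ± 1.01). The part of these markers in the Vcam1 values was not tested further.

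MAdCAM-1, the addressin of gut vessels, binds the integrin of alpha4 and beta7 chains. Madcam1 (mm10, chr10:79664559-79668537, plus strand) was the rarest of the genes, with 14 to 132 counts per library. It measured 0.927, 1.68, 0.807, 1.16 and 2.37 CPM in anti-Ang2 mice 1 to 5, against 1.19, 1.36, 1.82, 3.17 and 0.358 CPM in IgG mice 1 to 5. IgG libraries held both its highest and its lowest value. Madcam1 had a log2 fold change of -0.19 ± 0.53 (SE; 95% interval -1.35 to 0.98; adjusted p = 0.904 by edgeR), an interval too wide to say whether the groups differ.

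The selectins Sele and Selp lie side by side on the plus strand of chromosome 1 (mm10, chr1:164048234-164057677 and chr1:164115264-164150026), with 57586 bases between them. E-selectin is made anew in activated endothelium, while P-selectin is stored in Weibel-Palade bodies, the granules that also store Ang2, and is released to the surface. Sele measured 8.20, 7.34, 11.4, 7.03 and 4.65 CPM in anti-Ang2 mice 1 to 5, against 7.10, 12.6, 38.6, 10.2 and 8.06 CPM in IgG mice 1 to 5. The groups overlapped, and IgG library 3 held more than 3 times the next highest value. For Sele the log2 fold change was -0.98 ± 0.45 (SE; 95% interval -1.98 to 0.01; adjusted p = 0.280 by edgeR), and -0.30 ± 0.27 without IgG library 3. IgG library 3 was also the highest of all for Vcam1, but not for Icam1 or Selp.

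Selp was the more abundant selectin in every library. It measured 52.2, 91.5, 146, 78.7 and 82.8 CPM in anti-Ang2 mice 1 to 5, against 59.2, 77.3, 89.6, 99.4 and 91.8 CPM in IgG mice 1 to 5. The highest value was that of anti-Ang2 library 3, which was also highest for Icam1, and the lowest was that of anti-Ang2 library 1. For Selp the log2 fold change was 0.11 ± 0.23 (SE; 95% interval -0.40 to 0.62; adjusted p = 0.869 by edgeR), and -0.13 without anti-Ang2 library 3. Platelets carry Selp transcripts too, and all 10 platelet markers were detected, summing to 49.9 ± 21.8 CPM in anti-Ang2 libraries and 55.8 ± 24.9 CPM in IgG libraries (SD, n = 5 each). Gp6 was the platelet marker at 0 in 2 libraries, and the part of platelets in the Selp level was not tested. The antisense gene Gm16587 and the lincRNA gene Gm16548, both on the opposite strand, share 624 of the 4413 exon bases of Selp (14.1%).

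CD99L2, a relative of CD99, acts at endothelial junctions when leukocytes cross the vessel wall in mice. Cd99l2 (mm10, chrX:71420060-71492849, minus strand) measured 52.3, 46.7, 57.4, 42.7 and 38.8 CPM in anti-Ang2 mice 1 to 5, against 57.0, 54.4, 51.9, 59.8 and 68.8 CPM in IgG mice 1 to 5. Of the anti-Ang2 libraries, 1 and 3 lay within the IgG range, and 2, 4 and 5 lay below all IgG libraries. For Cd99l2 the log2 fold change was -0.29 ± 0.12 (SE; 95% interval -0.56 to -0.03; unadjusted p = 0.0299, adjusted p = 0.210 by edgeR), which did not pass the correction over all genes.

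MCAM (CD146) and ALCAM (CD166) are immunoglobulin superfamily members found on endothelium and on melanoma cells, and ALCAM is the ligand of CD6 on T cells. Mcam (mm10, chr9:44134469-44142727, plus strand) measured 331, 218, 246, 262 and 148 CPM in anti-Ang2 mice 1 to 5, against 164, 270, 192, 227 and 260 CPM in IgG mice 1 to 5. Anti-Ang2 libraries held both the highest and the lowest value, with a log2 fold change of 0.11 ± 0.20 (SE; 95% interval -0.32 to 0.55; adjusted p = 0.837 by edgeR). Anti-Ang2 library 1, the highest for Mcam, also had the highest melanoma sum and the highest pericyte sum (443 CPM), and anti-Ang2 library 5, the lowest for Mcam, had the lowest of each within its group. With the melanoma sum as a covariate the log2 fold change of Mcam was -0.33 ± 0.24, and with the pericyte sum -0.40 ± 0.20, neither of which passed the test.

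Alcam (mm10, chr16:52248996-52454074, minus strand) measured 8.44, 25.0, 9.89, 7.43 and 8.55 CPM in anti-Ang2 mice 1 to 5, against 6.37, 11.9, 7.53, 12.1 and 8.13 CPM in IgG mice 1 to 5. Anti-Ang2 library 2, the one also high for Vcam1, held more than 2 times the value of any other library, and the rest overlapped. The log2 fold change was 0.36 ± 0.35 (SE; 95% interval -0.40 to 1.13; adjusted p = 0.665 by edgeR), and -0.10 without anti-Ang2 library 2. With the melanoma sum as a covariate it was -0.27 ± 0.43.

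**Figure D3:**
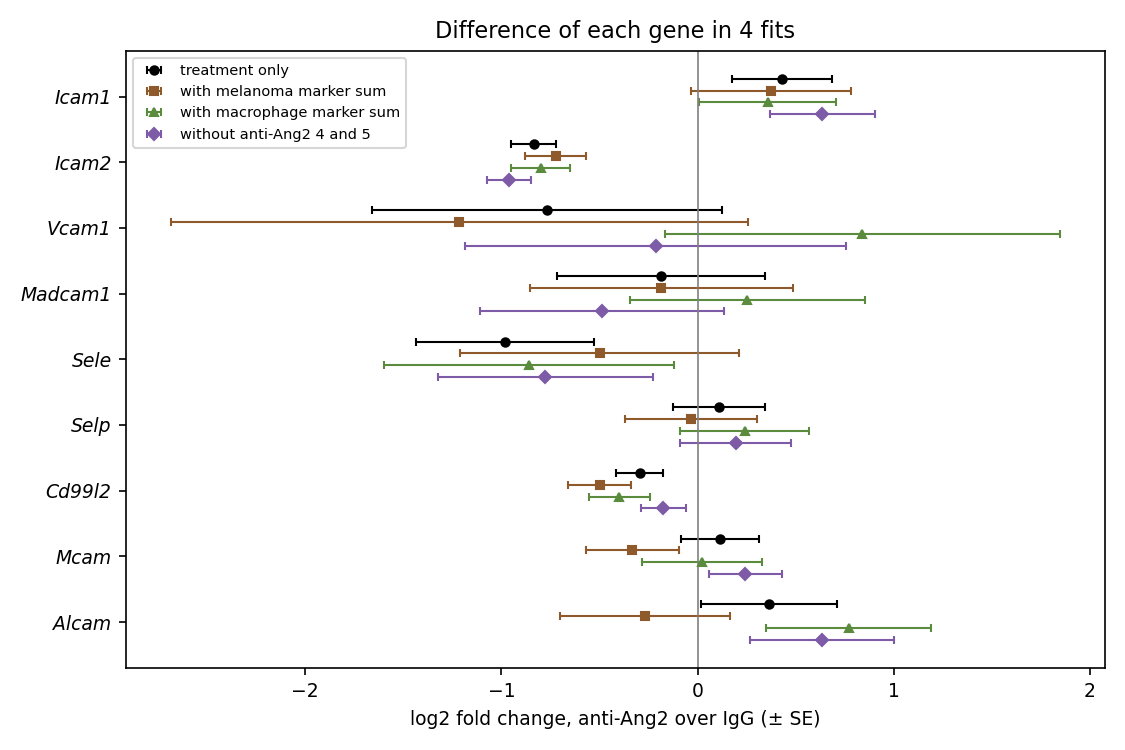
Log2 fold change, anti-Ang2 over IgG (x axis; bars are SE), of the 9 genes in 4 edgeR fits: treatment only (black), with the melanoma marker sum (brown) or the macrophage marker sum (green) as a covariate, and without anti-Ang2 libraries 4 and 5 (purple). Icam2 stays between -0.96 and -0.72 in all 4, whereas Vcam1, Madcam1, Selp, Mcam and Alcam change sign in at least 1.

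Genes within each group also varied to unequal degrees from mouse to mouse. The coefficient of variation of CPM was lowest for Icam2 (15.4% in anti-Ang2 LEC and 10.6% in IgG LEC) and Cd99l2 (15.6% in anti-Ang2 LEC and 11.2% in IgG LEC). It was highest for Vcam1 (153% in anti-Ang2 LEC and 88.7% in IgG LEC), and Sele reached 31.8% in anti-Ang2 LEC and 86.1% in IgG LEC. Over all tested genes the median was 22.3% in anti-Ang2 LEC and 18.5% in IgG LEC.

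The 3 genes whose pattern over the 10 libraries lay closest to that of Icam2 were Ushbp1, Ephb4 and Timeless, by the root mean square difference of centred log2 CPM (0.083, 0.111 and 0.129). Ephb4, the receptor tyrosine kinase of venous and lymphatic endothelium, fell to 610 ± 49.8 CPM in anti-Ang2 LEC, against 1042 ± 87.3 CPM in IgG LEC (SD, n = 5 each; adjusted p = 0.00100 by edgeR). Ushbp1 fell to 235 ± 44.9 CPM in anti-Ang2 LEC, against 420 ± 63.5 CPM in IgG LEC. Timeless fell to 44.3 ± 6.46 CPM in anti-Ang2 LEC, against 76.7 ± 8.40 CPM in IgG LEC. Their likeness includes the treatment difference itself.

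Around the adhesion molecules, 6 lists of related genes were read in the same fit. Over all tested genes, edgeR called 1.34% higher and 2.8% lower, 9.14% were higher and 9.1% lower at an unadjusted p under 0.05, and DESeq2 called 5.46% higher and 5.94% lower. Each list's counts stand beside these shares and carry no test of the list. Of 28 tested genes for other adhesion and junction proteins, 1 rose and 2 fell (10.7% called, against 4.13% of all genes; median log2 fold change -0.049). At an unadjusted p under 0.05 there were 5 higher and 5 lower, and DESeq2 called 3 higher and 3 lower. Cd200, a surface glycoprotein that restrains myeloid cells through its receptor, rose to 531 ± 31.7 CPM in anti-Ang2 LEC, against 363 ± 27.1 CPM in IgG LEC (log2 fold change 0.55 ± 0.08, adjusted p = 0.00231 by edgeR). F11r, which encodes the junctional adhesion molecule JAM-A, fell to 721 ± 30.3 CPM in anti-Ang2 LEC, against 973 ± 44.3 CPM in IgG LEC (log2 fold change -0.43 ± 0.07, adjusted p = 0.00368 by edgeR). Podxl, a sialomucin that can carry L-selectin ligands, fell to 548 ± 74.0 CPM in anti-Ang2 LEC, against 841 ± 54.6 CPM in IgG LEC (log2 fold change -0.62 ± 0.10, adjusted p = 0.00553 by edgeR). The junctional genes Pecam1 (log2 fold change -0.18 ± 0.09), Cdh5 (-0.0047 ± 0.077) and Esam (-0.061 ± 0.17) did not pass.

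Below the membrane, 3 of 24 genes for docking structures and adhesion signalling fell and none rose (12.5% called, against 4.13% of all genes; median -0.073; 1 higher and 7 lower at an unadjusted p under 0.05, and 0 higher and 4 lower by DESeq2). Mylk, the kinase that drives endothelial contraction through myosin light chain, fell to 26.8 ± 3.13 CPM in anti-Ang2 LEC, against 55.7 ± 9.51 CPM in IgG LEC (log2 fold change -1.05 ± 0.13, adjusted p = 0.00142 by edgeR). Ptk2, the focal adhesion kinase, fell to 144 ± 10.8 CPM in anti-Ang2 LEC, against 184 ± 14.1 CPM in IgG LEC (adjusted p = 0.0280). Vav3, a guanine nucleotide exchange factor, fell to 85.3 ± 5.86 CPM in anti-Ang2 LEC, against 111 ± 14.5 CPM in IgG LEC (adjusted p = 0.0465). Leaving out 1 library ended the call of Ptk2 for anti-Ang2 1, 3 or 4 and IgG 2, 3 or 5, with adjusted p up to 0.0853. For Vav3 it ended for anti-Ang2 1, 2, 3 or 4 and IgG 1, 2, 3 or 4, with adjusted p up to 0.124.

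Of 29 inducers and transcriptional regulators of the adhesion molecules, 2 fell and none rose (6.9% called, against 4.13% of all genes; median -0.10; 3 higher and 7 lower at an unadjusted p under 0.05, and 1 higher and 6 lower by DESeq2). Erg, an ETS factor known to act on the ICAM2 promoter in human endothelial cells, fell to 46.7 ± 4.69 CPM in anti-Ang2 LEC, against 62.7 ± 4.56 CPM in IgG LEC (log2 fold change -0.42 ± 0.09, adjusted p = 0.0221 by edgeR). Gata2, a zinc finger factor of endothelium and of lymphatic valves, fell to 137 ± 8.47 CPM in anti-Ang2 LEC, against 182 ± 25.7 CPM in IgG LEC (log2 fold change -0.41 ± 0.10, adjusted p = 0.0401 by edgeR). Both calls were near the threshold: that of Erg ended without anti-Ang2 3 or 4 or IgG 3 or 5 (adjusted p up to 0.0565), and that of Gata2 without anti-Ang2 1, 2, 3 or 4 or IgG 2, 3 or 5 (up to 0.110). Of the NF-kB genes, Nfkbib had the smallest p, with a log2 fold change of 0.33 ± 0.09 (adjusted p = 0.0756 by edgeR). Rela stood at 0.37 ± 0.13 (adjusted p = 0.159) and Nfkbia, which encodes the inhibitor that NF-kB itself induces, at -0.020 ± 0.14 (adjusted p = 0.964). Tnfrsf1a, which encodes a tumour necrosis factor receptor, stood at -0.45 ± 0.14 (adjusted p = 0.0962). None of these passed edgeR's test.

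Of 10 genes for proteases that cut adhesion molecules off the surface and for their inhibitors, 2 fell and none rose (20% called, against 4.13% of all genes; median -0.28; 1 higher and 4 lower at an unadjusted p under 0.05, and 0 higher and 2 lower by DESeq2). Adam10, a membrane sheddase, fell to 463 ± 47.4 CPM in anti-Ang2 LEC, against 634 ± 47.6 CPM in IgG LEC (adjusted p = 0.0151 by edgeR; 0.0506 without IgG library 3). Timp3, which inhibits such proteases, fell to 1281 ± 149 CPM in anti-Ang2 LEC, against 2134 ± 462 CPM in IgG LEC (adjusted p = 0.0123 by edgeR). The 2 called genes thus included a protease and an inhibitor.

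Of 12 tested genes that build selectin ligands, 1 rose and none fell (8.33% called, against 4.13% of all genes; median 0.029; 4 higher and 1 lower at an unadjusted p under 0.05, and 4 higher and 0 lower by DESeq2). It was St3gal6, a sialyltransferase, at 200 ± 18.9 CPM in anti-Ang2 LEC, against 139 ± 14.5 CPM in IgG LEC (log2 fold change 0.52 ± 0.09, adjusted p = 0.00944 by edgeR). Of 10 tested counter-receptors, the proteins on leukocytes that bind the endothelial molecules, 0 were called by edgeR, 2 were higher and 0 lower at an unadjusted p under 0.05, and DESeq2 called 1 higher. Their median log2 fold change was 1.02, at low levels: Selplg, which encodes the P-selectin ligand PSGL-1, stood at 2.77 ± 2.96 CPM in anti-Ang2 LEC and 0.794 ± 0.627 CPM in IgG LEC, and Itgb2, the shared chain of LFA-1 and Mac-1, at 6.40 ± 1.54 CPM in anti-Ang2 LEC and 7.36 ± 4.65 CPM in IgG LEC. Itgb1, which LEC themselves express, was the exception at 1489 ± 162 CPM in anti-Ang2 LEC and 1574 ± 82.5 CPM in IgG LEC. With the melanoma marker sum as a covariate, only Mylk of the 11 genes called in these 6 lists stayed past the threshold (adjusted p = 0.0369).

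**Figure D4:**
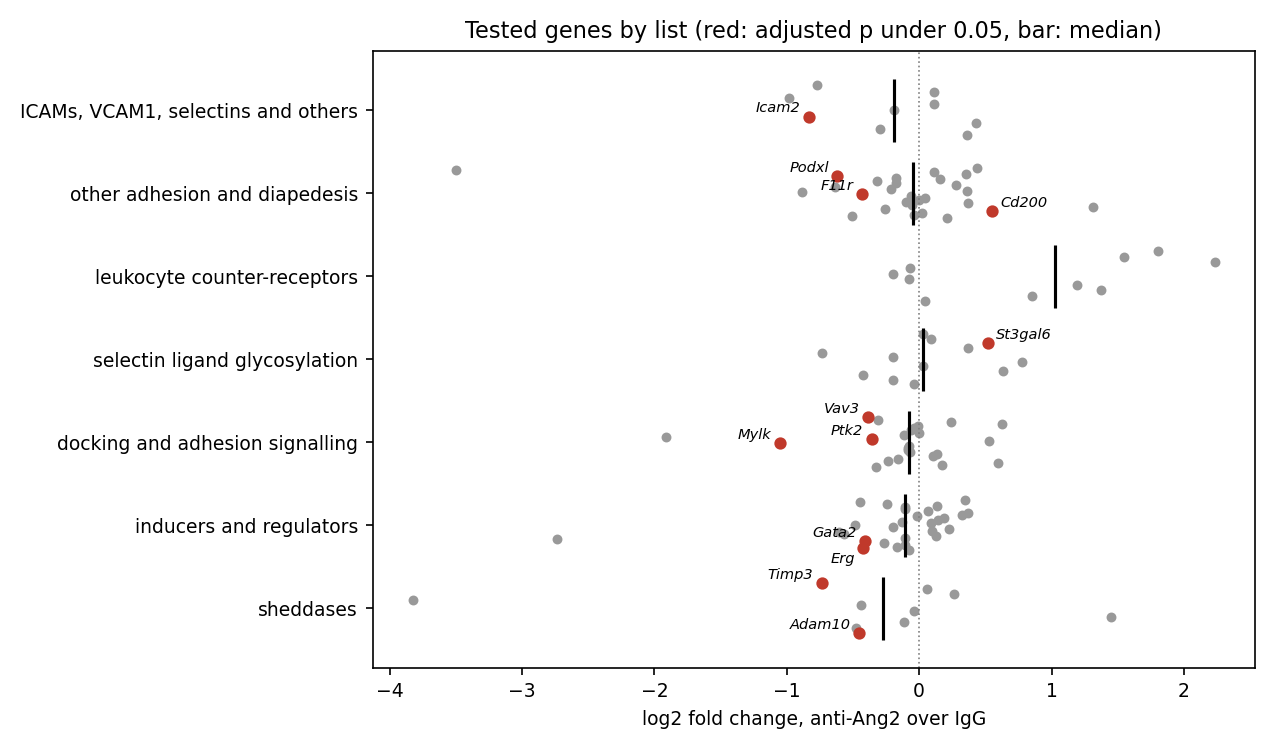
Log2 fold change, anti-Ang2 over IgG (x axis), of every tested gene of the adhesion molecules and the 6 related lists (rows); red points passed an adjusted p of 0.05 by edgeR and bars mark list medians. Of the red points, 10 lie left of 0 and 2 right of it, and the counter-receptors have the list median farthest from 0 (1.02).

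Markers of other cells were summed in every library. All 12 melanoma markers were detected in each, led by Dct and Gpnmb. All 12 had a positive log2 fold change, with a median of 1.75, and 1 of the 12 was called higher (8.33%, against 1.34% of all genes). At an unadjusted p under 0.05 by edgeR, 9 were higher and 0 lower, where 9.14% of all tested genes were higher. Of 15 macrophage and monocyte markers, 11 were tested and 0 were called (4 higher and 0 lower at an unadjusted p under 0.05). Their sums of 156 ± 94.0 CPM in anti-Ang2 libraries and 59.9 ± 74.8 CPM in IgG libraries had an exact permutation p of 0.0952 (adjusted 0.190), and Fcgr1, Cd163, Mpeg1, Ly6c2, Adgre1, Itgam and Ms4a7 were at 0 in 1 to 5 libraries. Pericyte and smooth muscle markers summed to 323 ± 105 CPM in anti-Ang2 libraries and 150 ± 65.1 CPM in IgG libraries (exact permutation p = 0.0317, adjusted 0.159). The most abundant of them were Cspg4, which melanoma cells are also known to express, Kcnj8, Acta2 and Abcc9. Kcnj8 was the 1 called gene of the list (11.1% called, against 4.13% of all genes). It stood at 62.3 CPM in anti-Ang2 libraries and 23.4 CPM in IgG libraries (adjusted p = 0.00545 by edgeR). Cspg4 averaged 172 CPM in anti-Ang2 libraries and 53.2 CPM in IgG libraries. Acta2 averaged 39.8 CPM in anti-Ang2 libraries and 31.3 CPM in IgG libraries, and Pdgfrb 4.69 CPM in anti-Ang2 libraries and 8.15 CPM in IgG libraries. Rgs5 averaged 3.29 CPM in anti-Ang2 libraries and 7.83 CPM in IgG libraries, and Notch3 0.612 CPM in anti-Ang2 libraries and 3.90 CPM in IgG libraries. Of the 9 tested markers of this list, 4 had a positive log2 fold change and 5 a negative one. Myh11, Cnn1 and Des were at 0 in 3, 4 and 1 libraries. Blood endothelial markers summed to 4315 ± 1073 CPM in anti-Ang2 libraries and 5895 ± 950 CPM in IgG libraries (exact permutation p = 0.0476, adjusted 0.159). Plvap alone, at 2216 CPM in anti-Ang2 libraries and 4022 CPM in IgG libraries, differed by more than the whole sum. The other markers together were thus not lower with anti-Ang2, and Plvap missed edgeR's threshold (adjusted p = 0.0541). Of the 12 markers Esm1 and Cdh13 were called higher and Nos3 lower (25% called, against 4.13% of all genes). In this list 7 had a positive log2 fold change, and the median was 0.097. Lymphatic markers summed to 17407 ± 1987 CPM in anti-Ang2 libraries and 19615 ± 1409 CPM in IgG libraries (exact permutation p = 0.0714, adjusted 0.179). Of these 10 markers, 3 fell by edgeR's test (Ccl21a by 1.22, Itga9 by 1.11 and Nrp2 by 1.49 on the log2 scale) and none rose. That is 30% called, against 4.13% of all genes, and 8 had a negative log2 fold change. Lymphocyte markers summed to 7.84 ± 2.61 CPM in anti-Ang2 libraries and 12.1 ± 4.84 CPM in IgG libraries (exact permutation p = 0.135, adjusted 0.225). Of the 13, Cd2 (5.22 CPM in anti-Ang2 libraries and 6.49 CPM in IgG libraries) and Trac were at 0 in no library, and Cd3e was at 0 in 6. The neutrophil markers S100a9 and Ly6g were at 0 in 8 libraries each. The smallest p that 5 against 5 libraries allow is 0.00794. Beyond the covariate fits given above, the part of these cells in the differences was not tested.

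**Figure D5:**
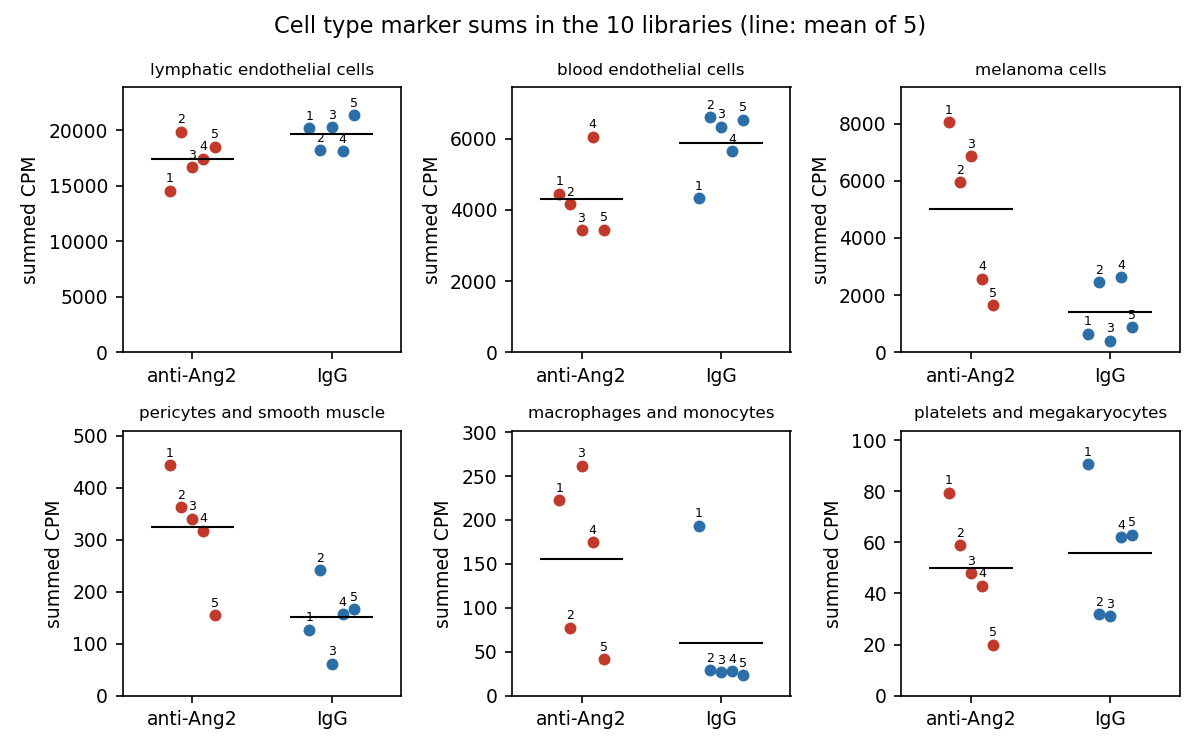
Summed CPM (y axes, linear, from 0) of the markers of 6 cell types in the 5 anti-Ang2 libraries (red, left) and the 5 IgG libraries (blue, right), with replicate numbers and lines at group means. Melanoma sums are highest in anti-Ang2 libraries 1, 2 and 3, while those of anti-Ang2 4 and 5 lie within the IgG range of 402 to 2621 CPM.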

How the data were processed

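RNA of LEC sorted from MT-ret tumours was sequenced from 5 anti-Ang2 and 5 IgG mice, 1 library per mouse. Per the labels' protocols, RNA was extracted with a PicoPure kit, 0.5 ng entered SMART-Seq v4 cDNA synthesis, which keeps no strand, and NEBNext ChIP-Seq reagents made the libraries. STAR, featureCounts, DESeq2 and mm10 are named in the submitters' processing notes; versions, annotation and strand setting are not given in the sources used here. Groups come from the treatment label, and the design states independent biological replicates.

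Per the file headers, the table gives counts per gene and library, and every test used these counts as the authors deposited them. The authors deposited FPKM too, which served to compare levels between genes and as an alternative for marker sums. Deposited TPM values were treated as a score, since their column sums exceed the total that defines TPM, and entered no result. The deposited baseMean, a signal of scaled counts, entered no result. Log2 fold changes with p-values also stand in the table as deposited by the authors, and are cited as theirs. Apart from TPM, no column of per-sample values was left unused.

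Libraries were scaled by TMM and genes filtered by filterByExpr (minimum count 10, minimum total 15) in edgeR 4.0.16 under R 4.3.3. All 9 genes with a row passed the filter. The quasi-likelihood F test was fitted over 16240 genes on both groups with no covariate. P-values were adjusted by Benjamini-Hochberg and called under 0.05. Standard errors were derived from that fit, as the size of the log2 fold change divided by the square root of its F statistic. The 95% intervals use these standard errors with the t distribution. CPM use the TMM-scaled totals. DESeq2 1.42.0, other scaling, no filter, a replicate block, marker-sum covariates and left-out libraries were alternatives. Marker sums were compared by two-sided exact permutation over 252 arrangements. The code was tested on simulated data. No 2 libraries were alike to within counting error (chi-square over its degrees of freedom at least 55.1). Reads carry no molecular identifiers.

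The genes, lists and tests were chosen with earlier results of these data known. Named genes are the 10 adhesion molecules, every gene called in a related list (up to 8), the 3 genes closest to a called member, Angpt2 and Tek; other genes are given as examples from their lists and were picked after their values were seen. Gene positions are from GENCODE M21 (mm10) and promoters from RefSeq.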

Additional observations from a re-analysis of the deposited data

Results flagged for a closer look

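In 38 groups of 5 libraries, 5 held 1 library far from the other 4 of its group by Dixon's test, each time the highest. For normally distributed values chance gives about 1 in 20 groups. CPM and marker sums need not be normal and the groups share libraries, so that rate cannot judge the number found. For Alcam this was anti-Ang2 library 2 at 25.0 CPM, and the same library stood apart for Vcam1 at 52.9 CPM. For Sele it was IgG library 3 at 38.6 CPM. The summed macrophage and monocyte markers of IgG library 1 came to 194 CPM, and the summed neutrophil markers of anti-Ang2 library 3 to 0.826 CPM, a level of few reads.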

How the results depend on the processing

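Of 171 values of the 9 adhesion molecules under other settings, 152 kept their direction and side of the threshold, 3 lost a call (Icam2, given with its values in the report), 0 gained one and 16 changed sign, all of genes not called. Sign changes came with the melanoma sum as a covariate for Selp (-0.033), Mcam (-0.33) and Alcam (-0.27). With the macrophage sum they came for Vcam1 (0.84) and Madcam1 (0.25), and with the pericyte sum, added after the data were seen, for Madcam1 (0.28), Mcam (-0.40) and Alcam (-0.064). Without anti-Ang2 1, 2 and 3 they came for Selp (-0.057), Madcam1 (0.15), Mcam (-0.13) and Alcam (-0.21). Leaving out 1 library gave -0.13 to 0.26 for Selp, -0.46 to 0.23 for Madcam1, -0.027 to 0.25 for Mcam and -0.10 to 0.49 for Alcam. The platelet marker sum differed by 3.75 in FPKM, against -5.88 in CPM. Genes called over the whole table numbered 217 higher and 454 lower as reported, 810 and 880 with DESeq2, 19 and 71 with the melanoma sum, 24 and 98 with the macrophage sum, 17 and 76 with the pericyte sum, 55 and 178 without anti-Ang2 1, 2 and 3, and 531 higher without anti-Ang2 4 and 5. Leaving out 1 library gave 82 to 326 higher and 259 to 468 lower. Adhesion molecules called lower numbered 1 as reported and in every leave-out of 1 library, and 0 with the melanoma sum, with the pericyte sum and without anti-Ang2 1, 2 and 3. In the 6 related lists 2 genes were called higher and 9 lower as reported. DESeq2 gave 9 and 15, the melanoma sum 0 and 1, the macrophage sum 1 and 2, and the pericyte sum 0 and 1. There were 4 lower without anti-Ang2 1, 2 and 3, and 10 higher without anti-Ang2 4 and 5. Leaving out 1 library gave 2 to 6 higher and 4 to 10 lower. With DESeq2's size factors in edgeR, or with no filter on low counts, these counts moved by less than 1.5 times. The cause of the shifts was not tested.

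Replicate numbers are shared by the groups, but same-numbered libraries did not deviate together in every pair (correlations -0.125 to 0.113). Such correlations cannot show whether mice were paired. The mice were treated as unpaired because the design states independent biological replicates. With a replicate block, 82 genes were called higher and 268 lower, 5 related genes fell, and Icam2 kept its call (-0.84 ± 0.14, adjusted p = 0.0321 by edgeR).

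Counting error weighs most for Madcam1 (14 to 132 counts per library). With 5 mice per group, differences smaller than the printed intervals cannot be judged, and transcript levels say nothing of protein on the cell surface.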

Other observations

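Within each library, the ratio of Icam1 to Icam2 FPKM does not depend on library scaling. It was 0.842, 1.57, 2.53, 0.669 and 1.09 in anti-Ang2 mice 1 to 5, against 0.565, 0.393, 0.461, 0.474 and 0.759 in IgG mice 1 to 5. The groups overlapped in 1 library, since anti-Ang2 library 4 lay below IgG library 5. This ratio was chosen after the values had been seen and was not tested.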
